A study of Mus musculus with 12 samples.

Results

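The 5 RNAs described here are *Rn7s1*, *Rn7s2*, *Rn7sk*, *Malat1* and *Neat1*, chosen by symbol from the 18926 genes quantified in S1 tumorspheres. All 5 were found, all passed the filter on low counts, and together they took between 10.1% and 17.2% of the reads assigned to genes in a library. S1 is a gastric cancer cell line from a ChetPS mouse, and tumorspheres are the round clusters its cells form in suspension. Total RNA was sequenced after removal of ribosomal RNA, without selection for poly(A) tails, so transcripts that lack a tail were counted. The series held 12 libraries, 3 in each of 4 groups, with between 43818139 and 96674463 counts per library. All cells expressed Cas9. Control cells carried a sgRNA with no target in the genome, *Nf2*-KO cells a sgRNA against *Nf2*, *Rasa1*-KO cells a sgRNA against *Rasa1*, and double-KO cells sgRNAs against both. Cells were infected with lentivirus and selected, and no single clone was described. The sample labels call the cells a monolayer, while the study describes tumorspheres. It calls the points of its own plots of these cells technical replications, so the p-values below measure the spread between libraries, which may be technical.

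The labels of 2 groups went against the targeted genes and against the names of the deposited tables. *Nf2* was at 57.4, 64.9 and 63.7 CPM (counts scaled to a fixed library total) in the 3 control libraries and at 59.2, 56.3 and 57.3 CPM in the libraries labelled double-KO. The group labelled *Rasa1*-KO had 11.1, 11.5 and 11.5 CPM, and *Nf2*-KO 14.4, 13.4 and 13.0 CPM. *Rasa1* was at 59.7, 79.6 and 90.3 CPM in control, 32.9, 29.3 and 29.4 CPM with the label *Rasa1*-KO, 97.9, 103 and 95.4 CPM in *Nf2*-KO, and 16.7, 20.2 and 23.7 CPM in those labelled double-KO. Both genes were thus low in the libraries labelled *Rasa1*-KO, and only *Rasa1* was low in those labelled double-KO. The names of the tables give these groups the other way round. The labels were kept, the groups are called "labelled *Rasa1*-KO" and "labelled double-KO" throughout, and every direction given for them rests on the label.

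Libraries also stood apart within groups. A library with no number in the name of its table was found in control and in the group labelled double-KO (library 1). Over all tested genes, the unnumbered control library lay nearest to labelled double-KO library 1, at a distance of 91.7 in log2 CPM, against a mean of 147 to the other control libraries. Control library 1 in turn lay nearest to labelled double-KO library 3, at 77.6. Libraries of *Nf2*-KO and labelled *Rasa1*-KO lay at mean distances of 51.2 to 53.2 from their own group, and those labelled double-KO at 89.3, 69.2 and 69.2. Labelled double-KO library 1 itself lay nearest to library 3 of its own group, at 89.3. Values with all 12 libraries are therefore set beside values without the 2 libraries that have no number, or with control and labelled double-KO represented by those 2 alone, where a call or a direction differs. The last setting was chosen after the data were seen, and it assumes that a lone library varies like the other groups.

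*Rn7s1* and *Rn7s2* encode 7SL, the RNA scaffold of the signal recognition particle, which brings ribosomes that make secreted and membrane proteins to the endoplasmic reticulum. *Rn7sk* encodes 7SK, which with the HEXIM proteins holds the kinase P-TEFb inactive and so restrains the elongation of transcription by RNA polymerase II. Both 7S RNAs are made by RNA polymerase III and have no poly(A) tail. *Malat1* and *Neat1* are long noncoding RNAs of RNA polymerase II that stay in the nucleus, in nuclear speckles and in paraspeckles respectively, and paraspeckles are built on the long form of *Neat1*.

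*Rn7s1* and *Rn7s2* lie on opposite strands of the same chromosome. On GRCm38, *Rn7sk* lies at chr9:78175302-78175633, *Malat1* at chr19:5795690-5802672 and *Neat1* at chr19:5824708-5845480, all on the minus strand.

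In GENCODE M21 the transcripts of *Rn7s1* and *Rn7s2* both have 300 bases and differ at 0 of them. A read of mature 7SL can therefore not be assigned to either gene by its sequence, and how the authors' counting treated such reads is not given in the sources used here. Values of *Rn7s1* and *Rn7s2* are thus uncertain as single genes, and their sum is given beside them. The first 60 bases of *Rn7sk* are shown because they hold GATC, a motif known from the stem of 7SK that HEXIM proteins bind. GATC occurs there 2 times, in capitals.

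Rn7sk, bases 1 to 60: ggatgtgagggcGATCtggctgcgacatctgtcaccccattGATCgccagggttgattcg

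Annotated genes also overlap the members. GENCODE M21 places *Gm47287* and *Gm47295* inside or across the end of *Rn7s1*, and *Gm47305* and *Gm47299* likewise at *Rn7s2*. *Gm37376* lies within *Malat1* on the opposite strand, and the strand setting of the counting is not given in the sources used here. The length implied by the counts and the authors' length-scaled levels of *Neat1*, scaled to the annotated *Malat1*, was between 20652 and 20768 bases, against 20773 bases for the gene. The implied length was thus near that of the whole gene. The counts are given per gene, so the short and long forms of *Neat1* were not separated.

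The 5 RNAs were among the most counted genes of every library. *Rn7s1* had the most counts of all genes in 10 of the 12 libraries, *Malat1* had the most in control library 2, and *Rn7sk* had the most in *Nf2*-KO library 2. The sum of *Rn7s1* and *Rn7s2* was larger in both of these libraries. It took 5.63% of the counts against 3.59% for *Malat1* in control library 2, and 5.37% against 2.8% for *Rn7sk* in *Nf2*-KO library 2. *Neat1* ranged from rank 4 in control library 2 to rank 18 in the unnumbered control library. Per length, the order *Rn7s1*, *Rn7s2*, *Rn7sk*, *Malat1*, *Neat1* held in all 12 libraries: the level in FPKM (fragments scaled by transcript length and mapped reads) was between 82500 and 177000 for *Rn7s1*, 80900 and 166000 for *Rn7s2*, 40700 and 92400 for *Rn7sk*, 1510 and 4510 for *Malat1*, and 115 and 925 for *Neat1*. The ranges of *Rn7s1*, *Rn7s2* and *Rn7sk* overlap, and those of *Malat1* and *Neat1* lie apart from them and from each other. In these bulk libraries, fewer cells that make an RNA and less of it per cell cannot be told apart.

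*Malat1* was lower than control in *Nf2*-KO and in labelled *Rasa1*-KO, and did not pass the test in those labelled double-KO. Its share of the counts was 1.49% in the unnumbered control library and 3.42% and 3.59% in control libraries 1 and 2. It was 1.24%, 1.37% and 1.16% under the label *Rasa1*-KO, 1.72%, 1.51% and 1.31% for *Nf2*-KO, and 1.85%, 3.03% and 3.07% for the libraries labelled double-KO. The unnumbered control library lay within the range of *Nf2*-KO, and the libraries labelled *Rasa1*-KO lay below every control and every labelled double-KO library. Of all tested genes, 48.6% had no overlap between labelled *Rasa1*-KO and control in either direction, and 57.3% none between the 2 labelled groups. The means were 2.83% ± 1.17 in control, 1.26% ± 0.108 in labelled *Rasa1*-KO, 2.65% ± 0.695 in labelled double-KO and 1.51% ± 0.204 in *Nf2*-KO (SD, n = 3 each). The log2 fold change from edgeR's quasi-likelihood test over the 12 libraries was -1.0 (SE 0.28, Benjamini-Hochberg adjusted p = 0.014) in labelled *Rasa1*-KO, -0.79 (SE 0.28, adjusted p = 0.038) in *Nf2*-KO and 0.04 (SE 0.28, adjusted p = 0.95) in labelled double-KO.

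These calls of *Malat1* against control rest on control libraries 1 and 2. Without both unnumbered libraries the log2 fold changes were -1.27 and -1.07, and against the unnumbered control library alone they were -0.19 (edgeR adjusted p = 0.30) and 0.01 (adjusted p = 0.95). Leaving out control library 1 gave -0.82 (adjusted p = 0.062) and -0.62 (adjusted p = 0.14), and leaving out control library 2 gave -0.86 (adjusted p = 0.043) and -0.66 (adjusted p = 0.11). Of the 12 fits without 1 library, 2 lost the call in labelled *Rasa1*-KO, the second without library 2 of that group (adjusted p = 0.057), and 9 lost that in *Nf2*-KO, with adjusted p up to 0.14. The difference between labelled double-KO and labelled *Rasa1*-KO held in all 3 settings. *Malat1* was higher in labelled double-KO by 1.04 on the log2 scale with 12 libraries (adjusted p = 0.016), by 1.22 without both unnumbered libraries (adjusted p = 4.5e-06) and by 0.60 with labelled double-KO library 1 alone (adjusted p = 0.005). It was lost without labelled *Rasa1*-KO library 2 (adjusted p = 0.065), without the library of that group whose title has no number (0.057), and without labelled double-KO library 2 (0.059) or 3 (0.052). Against *Nf2*-KO the same group was higher by 0.83 (adjusted p = 0.039), 1.02 (adjusted p = 1.5e-05) and 0.40 (adjusted p = 0.038) in these settings. That call was lost in 8 of the 12 fits without 1 library, namely without any 1 library labelled *Rasa1*-KO or of *Nf2*-KO and without labelled double-KO library 2 or 3, with adjusted p up to 0.13. In the fit of only the groups compared, both calls against control were lost (-0.98 in labelled *Rasa1*-KO, edgeR adjusted p = 0.06). With the numbers of the sample titles as a block, labelled double-KO was at 0.84 (adjusted p = 0.11) against labelled *Rasa1*-KO and 0.83 (adjusted p = 0.057) against *Nf2*-KO.

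*Neat1* had the widest range of the 5 RNAs, 8.31-fold between the lowest and the highest share. It took 0.260% of the counts in the unnumbered control library and 1.92% and 2.1% in control libraries 1 and 2. Its share was 0.476%, 0.560% and 0.395% under the label *Rasa1*-KO, 0.584%, 0.401% and 0.439% for *Nf2*-KO, and 0.374%, 2.16% and 2.06% for the libraries labelled double-KO. It was high in 4 libraries, control 1 and 2 and labelled double-KO 2 and 3, and low in the other 8, with no library in between and with all pairs of groups overlapping. Within control, libraries 1 and 2 had 7.41 and 8.07 times the share of the unnumbered one, and within labelled double-KO, libraries 2 and 3 had 5.77 and 5.50 times that of library 1. *Malat1* moved the same way by less, 2.30 and 2.42 times in control and 1.64 and 1.66 times in labelled double-KO.

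**Figure D1:**
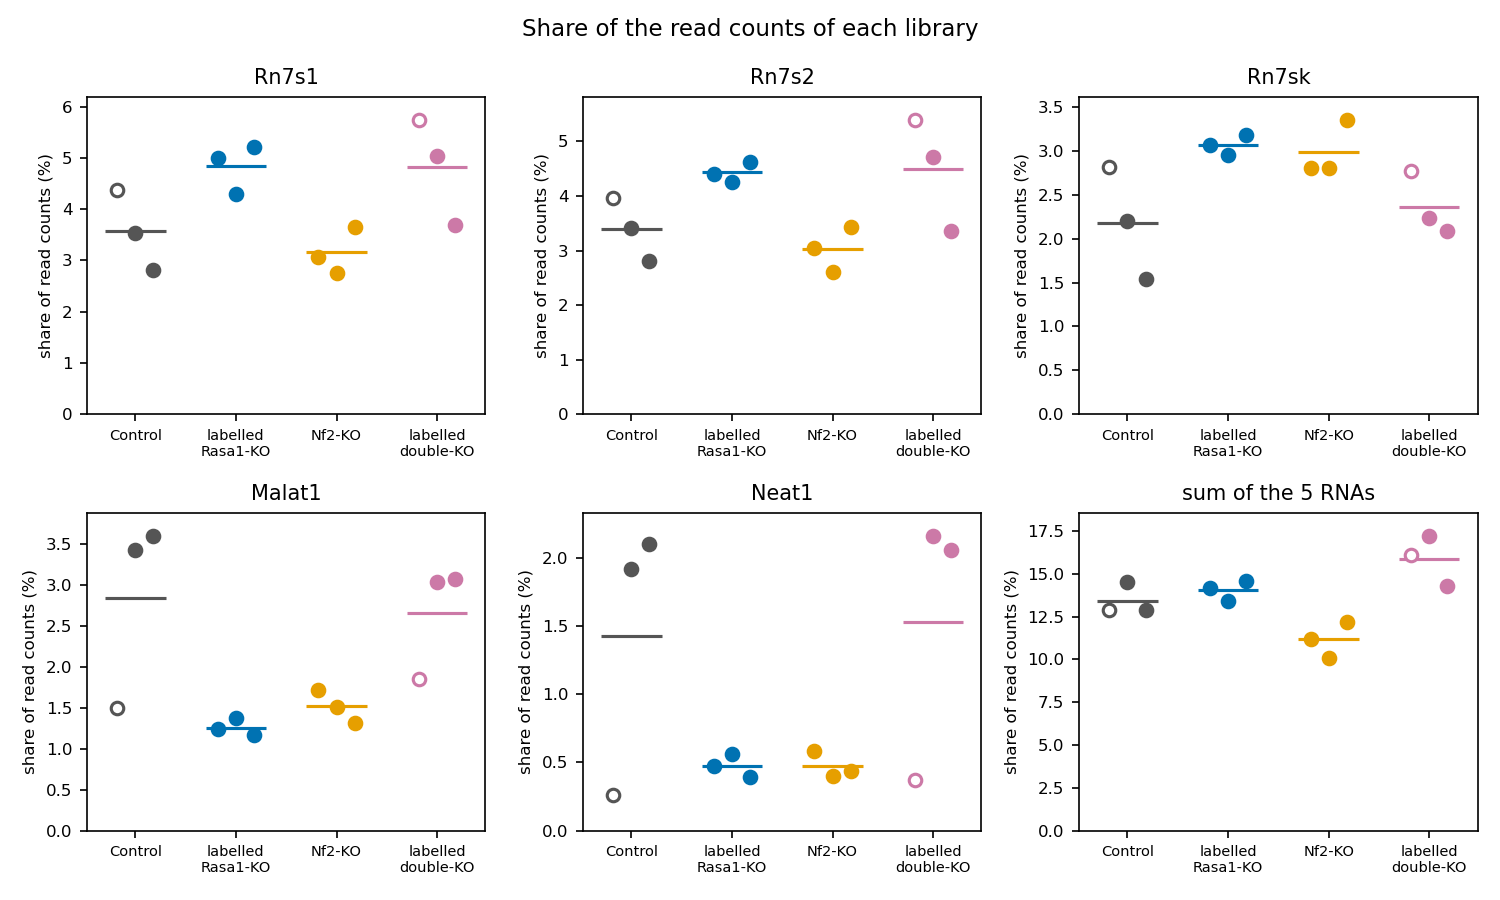
Share of the read counts (%) of each of the 5 RNAs and of their sum, by group. Points are libraries, open points the control library and the labelled double-KO library with no number in the name of the table, and lines the group means (n = 3). *Neat1* is between 1.92% and 2.16% in 4 libraries and at most 0.584% in the other 8.

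In edgeR's fit over 12 libraries with no block, no comparison of *Neat1* with control passed the test. The log2 fold changes were -1.38 (SE 0.67, edgeR adjusted p = 0.12) in labelled *Rasa1*-KO, -1.45 (SE 0.67, adjusted p = 0.099) in *Nf2*-KO and 0.25 (SE 0.65, adjusted p = 0.87) in labelled double-KO. With the 12 libraries in a replicate block taken from the table names, the first 2 were -1.73 (adjusted p = 9.0e-05) and -1.80 (adjusted p = 5.9e-05), and DESeq2 gave -1.35 (adjusted p = 0.053) and -1.42 (adjusted p = 0.041). The block puts the unnumbered control library with labelled double-KO library 1 alone. Comparisons of *Nf2*-KO or labelled *Rasa1*-KO with control or labelled double-KO thus rest mainly on the numbered libraries there. The sign in labelled *Rasa1*-KO and *Nf2*-KO depended on the control libraries. Without both unnumbered libraries *Neat1* was at -1.87 (adjusted p = 1.1e-06) in labelled *Rasa1*-KO and -1.94 (adjusted p = 6.9e-07) in *Nf2*-KO, and against the unnumbered control library alone it was at 0.93 (adjusted p = 0.0046) and 0.86 (adjusted p = 0.0066). Labelled double-KO against labelled *Rasa1*-KO gave 1.63 (adjusted p = 0.088), 2.09 (adjusted p = 9.3e-07) and -0.31 (adjusted p = 0.24) in the 3 settings. Against *Nf2*-KO the values of labelled double-KO were 1.70 (adjusted p = 0.074), 2.16 (adjusted p = 4.6e-07) and -0.24 (adjusted p = 0.37). In the replicate block both comparisons passed, at 2.07 (adjusted p = 7.0e-05) and 2.14 (adjusted p = 3.6e-05), as they did by DESeq2 (adjusted p = 0.022 and 0.015).

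Ribosomal RNA left after its removal was highest in libraries with high *Neat1*, but not in all of them. Mitochondrial *mt-Rnr2* was at 16200 and 13800 CPM in control libraries 1 and 2, 11700 and 8420 CPM in labelled double-KO libraries 2 and 3, 5810 CPM in the unnumbered control library and 3800 CPM in labelled double-KO library 1. Labelled *Rasa1*-KO had 5050, 8670 and 7990 CPM and *Nf2*-KO 6050, 4020 and 2660 CPM, so the ranges overlap. *mt-Rnr2* was lower in *Nf2*-KO than in control, at -1.39 (edgeR adjusted p = 0.026), and at -0.47 (adjusted p = 0.29) against the unnumbered control library alone. *Rn18s-rs5*, of the 18S rRNA, was at 122 and 90.2 CPM in control libraries 1 and 2, 82.9 CPM in labelled double-KO library 2 and 25.2 CPM in library 3. It was between 11.8 and 47.0 CPM in the 8 libraries with low *Neat1*. The part of the rRNA in the difference of *Neat1* was not tested. Gene-assigned lncRNA counts other than *Malat1* and *Neat1* took 0.671% and 0.852% in control libraries 1 and 2 and 0.451% in the unnumbered one. They took 0.587% and 0.602% in labelled double-KO libraries 2 and 3 and 0.415% in library 1. Labelled *Rasa1*-KO had 0.473% to 0.481% and *Nf2*-KO 0.486% to 0.504%. These counts were thus also highest in the libraries with high *Neat1*, over a narrower range than that of *Neat1*.

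The ratio of *Neat1* to *Malat1* counts, which does not depend on the scaling of a library, was 0.175 in the unnumbered control library, 0.563 and 0.584 in control libraries 1 and 2, 0.202 in labelled double-KO library 1, and 0.712 and 0.669 in libraries 2 and 3. Labelled *Rasa1*-KO had ratios of 0.342 to 0.409 and *Nf2*-KO of 0.266 to 0.339. The libraries of these groups lay between the unnumbered and the numbered libraries of the other groups. In an exact permutation test of any difference among the 4 groups, on log2 ratios and chosen after the ratios were seen, p was 0.80 with 12 libraries. Without both unnumbered libraries p was 1.6e-04, the smallest the 25200 arrangements can give (adjusted over this and the ratio of 7SK to 7SL, 3.2e-04). The 2 libraries left out had the lowest ratios, which were seen before the test was chosen, so this p decides nothing about the groups.

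The 7SL shares of the libraries labelled *Rasa1*-KO lay above those of *Nf2*-KO without overlap, and the difference did not pass the test in the fit over 12 libraries. Of all tested genes, 41.2% had no overlap between these groups in either direction. *Rn7s1* took 5.00%, 4.29% and 5.22% of the counts in the former and 3.07%, 2.76% and 3.66% in the latter. *Rn7s2* took 4.41%, 4.25% and 4.63% and 3.05%, 2.61% and 3.43%. In *Nf2*-KO against labelled *Rasa1*-KO the log2 fold change of *Rn7s1* was -0.67 (SE 0.26) and that of *Rn7s2* -0.61 (SE 0.24), with edgeR adjusted p = 0.21 and 0.23 in the fit over 12 libraries, where all groups share 1 estimate of the spread. In the fit of these groups alone both passed (adjusted p = 0.0037 and 0.0033), where 25.8% of genes were called. Both also passed without both unnumbered libraries (adjusted p = 0.015 and 0.019), with 19.2% of genes called, with the unnumbered libraries alone in the other groups (0.003 and 0.0026), with 24.4% called, and in the replicate block from the table names (0.019 and 0.032).

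In control, *Rn7s1* took 4.38%, 3.54% and 2.81% of the counts and *Rn7s2* 3.96%, 3.42% and 2.81%, the unnumbered library first. In the libraries labelled double-KO they took 5.74%, 5.04% and 3.69%, and 5.39%, 4.72% and 3.35%. The unnumbered control library and labelled double-KO library 1, which were low in *Neat1*, had the highest 7SL share of their groups. The sum of both genes was 6.97% ± 1.36 in control, 9.27% ± 0.669 in labelled *Rasa1*-KO, 9.30% ± 2.08 in labelled double-KO and 6.20% ± 0.860 in *Nf2*-KO (SD, n = 3 each).

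Against control no 7SL gene passed the test with 12 libraries and no block. The log2 fold changes of *Rn7s1* and *Rn7s2* were 0.57 (SE 0.26, edgeR adjusted p = 0.096) and 0.52 (SE 0.24, adjusted p = 0.10) in labelled *Rasa1*-KO, -0.10 (adjusted p = 0.76) and -0.09 (adjusted p = 0.79) in *Nf2*-KO, and 0.54 (adjusted p = 0.26) and 0.52 (adjusted p = 0.25) in labelled double-KO. Without both unnumbered libraries they were 0.81 (adjusted p = 0.0028) and 0.71 (adjusted p = 0.0044) in labelled *Rasa1*-KO, and 0.61 (adjusted p = 0.045) and 0.52 (adjusted p = 0.062) in labelled double-KO. Against the unnumbered control library alone they were 0.20 (adjusted p = 0.39) and 0.22 (adjusted p = 0.28) in labelled *Rasa1*-KO, 0.48 (adjusted p = 0.14) and 0.54 (adjusted p = 0.074) in labelled double-KO, and -0.48 (adjusted p = 0.04) and -0.40 (adjusted p = 0.053) in *Nf2*-KO. With 12 libraries and the replicate block from the table names, both genes passed in labelled *Rasa1*-KO, at 0.70 (adjusted p = 0.0054) and 0.65 (adjusted p = 0.0086), and in labelled double-KO, at 0.55 (adjusted p = 0.033) and 0.51 (adjusted p = 0.049). The block values of labelled *Rasa1*-KO rest mainly on the numbered control libraries.

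In labelled double-KO against *Nf2*-KO the log2 fold changes, from edgeR, were 0.64 (adjusted p = 0.077) and 0.60 (adjusted p = 0.078) for *Rn7s1* and *Rn7s2* with 12 libraries, 0.47 (adjusted p = 0.053) and 0.42 (adjusted p = 0.066) without both unnumbered libraries, and 0.96 (adjusted p = 0.00082) and 0.93 (adjusted p = 0.00045) with labelled double-KO library 1 alone. Both passed in the replicate block, at 0.53 (adjusted p = 0.025) and 0.48 (adjusted p = 0.042), and by DESeq2 (adjusted p = 0.034 and 0.032). The block values rest mainly on the numbered libraries of labelled double-KO.

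*Rn7sk* took 2.81%, 2.20% and 1.54% of the counts in control, the unnumbered library first. Its share was 3.07%, 2.95% and 3.18% under the label *Rasa1*-KO, 2.80%, 2.80% and 3.35% for *Nf2*-KO, and 2.77%, 2.23% and 2.09% for the libraries labelled double-KO. The libraries labelled *Rasa1*-KO and those of *Nf2*-KO lay above every labelled double-KO library, and labelled *Rasa1*-KO also lay above every control library. No overlap in either direction was seen for 57.3%, 56.7% and 48.6% of all tested genes in these 3 pairs. The log2 fold change against control was 0.62 (SE 0.25, edgeR adjusted p = 0.067) in labelled *Rasa1*-KO, 0.52 (SE 0.25, adjusted p = 0.12) in *Nf2*-KO and 0.22 (SE 0.25, adjusted p = 0.67) in labelled double-KO. It was 0.91 (adjusted p = 0.00049), 0.81 (adjusted p = 0.0011) and 0.35 (adjusted p = 0.16) without both unnumbered libraries, and 0.18 (adjusted p = 0.31), 0.08 (adjusted p = 0.68) and 0.08 (adjusted p = 0.80) against the unnumbered control library with labelled double-KO library 1. In the replicate block from the table names *Rn7sk* passed in labelled *Rasa1*-KO (0.81, adjusted p = 0.0052) and *Nf2*-KO (0.70, adjusted p = 0.01), and DESeq2 gave adjusted p = 0.034 and 0.078. Comparisons of these groups with control or labelled double-KO in the block rest mainly on the numbered libraries. In labelled double-KO *Rn7sk* was at -0.40 (edgeR adjusted p = 0.25) against labelled *Rasa1*-KO and -0.30 (adjusted p = 0.40) against *Nf2*-KO with 12 libraries. The same comparisons gave -0.56 (adjusted p = 0.015) and -0.46 (adjusted p = 0.037) without both unnumbered libraries. In the block they gave -0.55 (adjusted p = 0.034) and -0.44 (adjusted p = 0.074), and with labelled double-KO library 1 alone -0.11 and -0.00.

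The ratio of *Rn7sk* to the summed 7SL counts of *Rn7s1* and *Rn7s2* was 0.337, 0.316 and 0.274 in control, 0.326, 0.346 and 0.323 in labelled *Rasa1*-KO, 0.457, 0.521 and 0.472 in *Nf2*-KO and 0.249, 0.229 and 0.298 in labelled double-KO. All 3 *Nf2*-KO libraries lay above the 9 others, and the unnumbered control library lay with the other control libraries in this measure. In the exact permutation test of any difference among the 4 groups, over 369600 arrangements, p was 9.1e-04 (adjusted p = 0.0018), and without both unnumbered libraries it was 0.0022 (adjusted p = 0.0022). This test too was chosen after the ratios were seen and ignores the pairs by table name. Its p-values were adjusted over this ratio and that of *Neat1* to *Malat1* only. Pairs of groups were not tested.

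**Figure D2:**
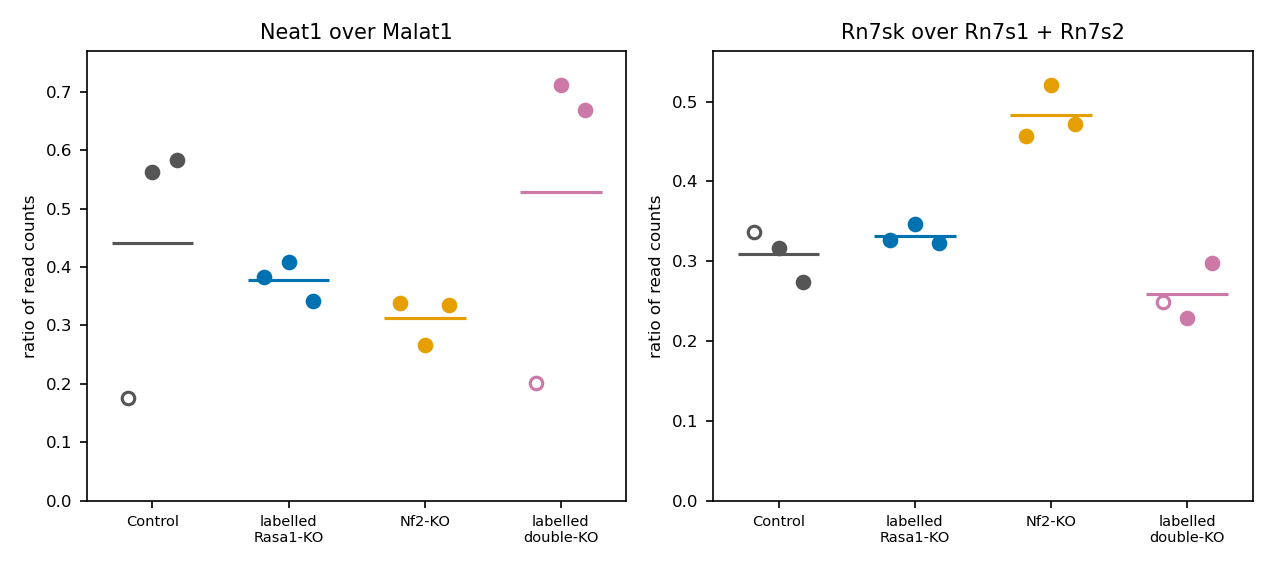
Ratio of *Neat1* to *Malat1* counts and of *Rn7sk* to the summed 7SL counts, by group. Points are libraries, open points the 2 libraries with no number, and lines the group means (n = 3). The *Nf2*-KO libraries have 0.457 to 0.521 in the second panel, and the 9 others at most 0.346.

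Over the 5 RNAs, 1 was called lower at an adjusted p under 0.05 in labelled *Rasa1*-KO against control, where 41.9% of the tested genes were called, 19.7% higher and 22.2% lower. In *Nf2*-KO 1 was called lower, where 42.8% of genes were called, 20.6% higher and 22.2% lower. In labelled double-KO 0 were called, where 6.46% of genes were called, 4% higher and 2.46% lower. For that count of 0, edgeR gave 0 of the 5 an unadjusted p under 0.05 and DESeq2 called 0. The unadjusted p of *Rn7s1* and *Rn7s2* was 0.058 and 0.055 by edgeR, and 0.03 and 0.025 by DESeq2. The other pairs called 1 of the 5 in labelled double-KO against labelled *Rasa1*-KO (30.3% of all genes), 1 in labelled double-KO against *Nf2*-KO (32.2%), and 0 in *Nf2*-KO against labelled *Rasa1*-KO (3.66%), where *Rn7s1* and *Rn7s2* had an unadjusted p under 0.05 and DESeq2 called 0. A test for any difference among the 4 groups called *Malat1* alone (adjusted p = 0.015), against 46.3% of genes. In the replicate block from the table names it called all 5, with adjusted p between 4.9e-05 and 0.018, where it called 57.1% of genes. It also called all 5 without both unnumbered libraries, with adjusted p up to 0.007 and 73.2% of genes called, and the 4 other than *Rn7sk* with the unnumbered libraries alone, where 66.3% were called. By the rule of the study, a raw p under 0.05 with a change of 3-fold or more, none of the 5 was called against control, and 9.27%, 11.4% and 2.03% of genes were.

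These counts moved with the libraries used. Without both unnumbered libraries all 5 were called for the label *Rasa1*-KO, 3 for *Nf2*-KO and 1 for the label double-KO, where 65.9%, 67% and 29.9% of genes were called. Against the unnumbered control library alone, 1, 2 and 0 were called, with 48.6%, 50.9% and 21% of genes. With a replicate block taken from the table names, 5, 3 and 2 were called, with 52%, 53.2% and 13.9% of genes.

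**Figure D3:**
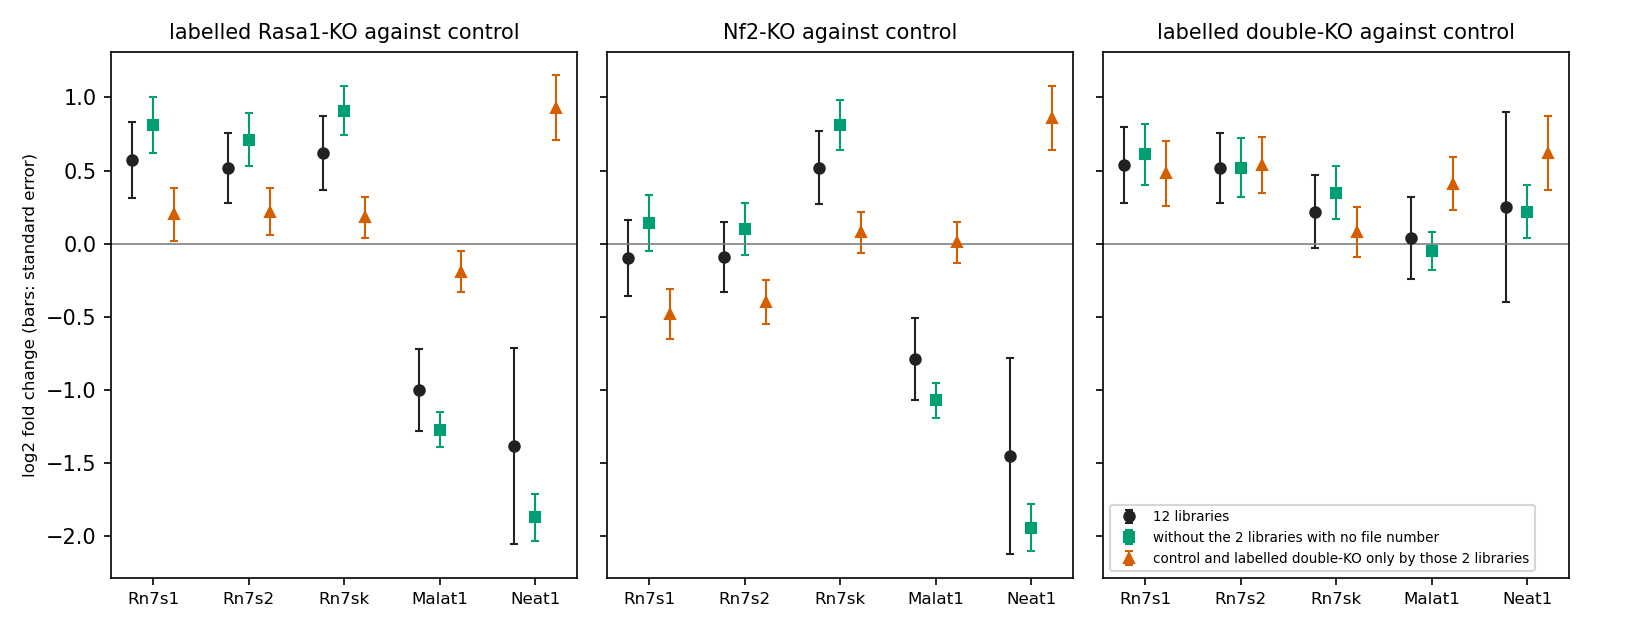
Log2 fold change against control of the 5 RNAs in 3 sets of libraries, with standard errors from edgeR. *Neat1* is below 0 in labelled *Rasa1*-KO and *Nf2*-KO without the 2 unnumbered libraries (-1.87 and -1.94) and above 0 against the unnumbered control library (0.93 and 0.86).

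The departure from additivity, the difference of labelled double-KO from the sum of both single changes, was called for 3 of the 5, where 52.4% of all genes were called. It was 1.83 for *Malat1* (SE 0.39, edgeR adjusted p = 0.0023), 3.09 for *Neat1* (SE 0.95, adjusted p = 0.017) and -0.92 for *Rn7sk* (SE 0.35, adjusted p = 0.047) on the log2 scale. *Rn7s1* was at 0.07 (SE 0.36, adjusted p = 0.88) and *Rn7s2* at 0.08 (SE 0.34, adjusted p = 0.86). With both labels exchanged, as the levels of *Nf2* and *Rasa1* have them, the values were -0.25 for *Malat1* (adjusted p = 0.80), -0.18 for *Neat1* (adjusted p = 0.95) and -0.12 for *Rn7sk* (adjusted p = 0.91). None was called there, where 6.41% of all genes were called. The departure of *Neat1* without both unnumbered libraries was 4.02 (adjusted p = 1.7e-08), that of *Malat1* 2.29 (adjusted p = 1.2e-07) and that of *Rn7sk* -1.37 (adjusted p = 2.4e-04), and in the block from the table names they were 3.88, 2.16 and -1.26. Represented by the unnumbered libraries alone, *Neat1* was at -1.17 (adjusted p = 0.0062), *Malat1* at 0.58 (adjusted p = 0.027) and *Rn7sk* at -0.18 (adjusted p = 0.45). In that setting *Rn7s1* and *Rn7s2* passed, at 0.76 (adjusted p = 0.021) and 0.71 (adjusted p = 0.016), while without both unnumbered libraries they were at -0.34 (adjusted p = 0.27) and -0.29 (adjusted p = 0.32).

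Partner genes were counted by list, as a description to be read beside the 41.9%, 42.8% and 6.46% of all genes called against control. Among the proteins and receptors of the signal recognition particle, 1 of 10 was higher in labelled *Rasa1*-KO and 1 in *Nf2*-KO, and 0 in labelled double-KO. This was *Srp72*, which binds 7SL in the particle, at 0.41 (edgeR adjusted p = 0.0047) and 0.44 (adjusted p = 0.0027). The median log2 fold change of the list was 0.12, 0.18 and 0.07, beside -0.08, -0.07 and -0.04 for all genes tested. *Srp54a*, *Srp54b* and *Srp54c* are near-identical copies, so their counts are uncertain. Against the unnumbered control library alone *Srp72* was still higher, at 0.27 (adjusted p = 0.024) and 0.29 (adjusted p = 0.014). The counts of the list depended on the libraries: without both unnumbered libraries 6 and 8 of the 10 were higher and 0 lower, where 65.9% and 67% of all genes were called, and against the unnumbered control library alone 2 and 3 were higher and 4 and 5 lower.

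Of the 7 genes of the 7SK particle, 1 was higher and 1 lower in both labelled *Rasa1*-KO and *Nf2*-KO, and 0 changed in labelled double-KO. *Hexim1*, the inhibitor of P-TEFb that 7SK binds, was at 58.2 CPM in control and 55.6 CPM in labelled double-KO (group means) and at 31.1 and 32.0 CPM in labelled *Rasa1*-KO and *Nf2*-KO. These were log2 fold changes of -0.74 (SE 0.11, edgeR adjusted p = 0.00038) and -0.76 (SE 0.11, adjusted p = 0.00025), and -0.53 (adjusted p = 0.002) and -0.55 (adjusted p = 0.0013) against the unnumbered control library alone. *Ccnt1*, the cyclin of P-TEFb, was higher by 0.30 (adjusted p = 0.034) and 0.44 (adjusted p = 0.0046), and was at 0.19 (adjusted p = 0.10) and 0.32 (adjusted p = 0.01) against the unnumbered control library alone. *Larp7* and *Mepce*, which stabilise and cap 7SK, were not called.

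Among transcription factors of RNA polymerase III promoters, most of them of the 7SK type, with the RNA-binding protein La (*Ssb*) and the repressor *Maf1*, 3 of 13 genes were higher and 2 lower in both labelled *Rasa1*-KO and *Nf2*-KO. *Zfp143*, a factor that activates promoters of the 7SK type, was higher by 0.85 (edgeR adjusted p = 0.0015) and 0.91 (adjusted p = 0.00078). *Snapc2*, a subunit of the complex that binds the proximal element of those promoters, was higher by 0.72 (adjusted p = 0.00082) and 0.64 (adjusted p = 0.0015), while *Snapc3* of the same complex was at -0.67 (adjusted p = 0.0034) and -0.54 (adjusted p = 0.01). *Snapc3* was at -0.27 (adjusted p = 0.067) and -0.14 (adjusted p = 0.31) against the unnumbered control library alone. *Brf1*, a subunit of the form of TFIIIB that serves other promoter types than that of 7SK, was at -0.57 in labelled *Rasa1*-KO (adjusted p = 0.0012). The list medians were 0.01, 0.12 and -0.05 in the 3 comparisons with control.

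Of 13 subunits of RNA polymerase III, 3 were higher and 1 lower in labelled *Rasa1*-KO, 3 higher and 3 lower in *Nf2*-KO, and 0 in labelled double-KO. *Polr1d*, shared with RNA polymerase I, was higher by 1.17 (edgeR adjusted p = 0.0014) and 1.11 (adjusted p = 0.0018), and *Polr3g*, which alternates with *Polr3gl* in the enzyme, by 0.91 (adjusted p = 0.00037) and 0.93 (adjusted p = 0.00024). Both were also higher against the unnumbered control library alone, *Polr1d* by 0.65 and 0.59 and *Polr3g* by 0.68 and 0.70. *Polr3b*, one of the catalytic subunits, was at -0.57 in labelled *Rasa1*-KO (adjusted p = 0.0045).

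Other short RNAs of RNA polymerase III took fewer counts than 7SL and 7SK. *Rpph1*, the RNA of ribonuclease P, was between 6060 and 12900 CPM, and *Rmrp*, the RNA of ribonuclease MRP, between 1750 and 3740 CPM. *Rny1* and *Rny3*, which encode Y RNAs, were at most 0.157 and 0.262 CPM. *Bc1*, a rodent RNA best known from neurons, was at 1.99, 2.76 and 5.61 CPM in control, 12.5, 13.1 and 20.5 in labelled *Rasa1*-KO, 17.1, 21.6 and 18.2 in *Nf2*-KO, and 5.20, 8.46 and 6.53 in labelled double-KO. *Bc1* was the 1 gene of 5 tested in this list that was called, at 2.36 (SE 0.32, edgeR adjusted p = 0.00016) in labelled *Rasa1*-KO and 2.59 (SE 0.32, adjusted p = 6.3e-05) in *Nf2*-KO, with neither group overlapping control. Of all tested genes, 48.6% and 47.8% did not overlap control in these groups.

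Of 9 paraspeckle proteins, 3 were higher and 2 lower in labelled *Rasa1*-KO, and 3 higher and 1 lower in *Nf2*-KO. *Pspc1*, a core paraspeckle protein, was higher by 0.51 in labelled *Rasa1*-KO (edgeR adjusted p = 0.0016) and 0.31 in *Nf2*-KO (adjusted p = 0.022; 0.24, adjusted p = 0.08, against the unnumbered control library alone), and *Dazap1*, an RNA-binding protein, by 0.88 (adjusted p = 0.0093) and 0.98 (adjusted p = 0.0047). *Fam98a* was at -0.57 (adjusted p = 0.0083) and -0.52 (adjusted p = 0.012), and at -0.30 (adjusted p = 0.087) and -0.25 (adjusted p = 0.13) against the unnumbered control library alone. In labelled double-KO 0 of the 9 were called, and the list medians were 0.36, 0.26 and 0.04.

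Nuclear speckle proteins gave 0 higher and 3 lower of 10 in labelled *Rasa1*-KO, 1 higher and 1 lower in *Nf2*-KO, and 0 in labelled double-KO. *Son* and *Srrm2*, the scaffold of the speckle, were at -0.74 (edgeR adjusted p = 0.0081) and -1.28 (adjusted p = 0.045) in labelled *Rasa1*-KO. Against the unnumbered control library alone they were at -0.15 (adjusted p = 0.27) and 0.51 (adjusted p = 0.19). Of the list, 3 were higher and 5 lower in labelled *Rasa1*-KO without both unnumbered libraries, and 4 higher and 4 lower in *Nf2*-KO, while it was 2 and 2, and 2 and 1, against the unnumbered control library alone. Of 8 other nuclear lncRNAs, 1 was higher and 4 lower in labelled *Rasa1*-KO, and 1 higher and 2 lower in *Nf2*-KO. *Firre* was at -1.29 (adjusted p = 0.00021) and -1.49 (adjusted p = 5.6e-05), *Dleu2* at -1.56 (adjusted p = 0.0009) and -1.51 (adjusted p = 0.00094), and *Pvt1* at 0.95 (adjusted p = 0.00013) and 1.00 (adjusted p = 7.2e-05), with the same signs against the unnumbered control library alone. *Kcnq1ot1* was at -1.36 (adjusted p = 0.0041) in labelled *Rasa1*-KO and at -0.32 (adjusted p = 0.15) against that library alone.

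Other calls of the lists were also lost against the unnumbered control library alone. *Hnrnpk* of the paraspeckle list went from 0.39 and 0.46 (edgeR adjusted p = 0.038 and 0.018) to 0.08 and 0.14 in labelled *Rasa1*-KO and *Nf2*-KO. *Srsf11*, a splicing factor of nuclear speckles, went from -0.70 (adjusted p = 0.0081) to -0.18 in labelled *Rasa1*-KO, and *Srsf2*, another, from 0.43 (adjusted p = 0.0096) to 0.19 in *Nf2*-KO. The RNA polymerase III subunit *Polr3c* went from -0.43 (adjusted p = 0.031) to -0.13 in *Nf2*-KO.

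The counts of the other lists moved with the libraries too, as did the share of all genes called, which was 65.9% and 67% without both unnumbered libraries and 48.6% and 50.9% against the unnumbered control library alone. Without both unnumbered libraries, the genes higher and lower in labelled *Rasa1*-KO and then in *Nf2*-KO were 1 and 2, then 2 and 2 for the 7SK particle, and 5 and 4, then 5 and 3 for the transcription factors of RNA polymerase III. They were 6 and 2, then 6 and 3 for RNA polymerase III subunits, 4 and 4, then 4 and 3 for paraspeckle proteins, and 1 and 6, then 1 and 5 for other nuclear lncRNAs. Against the unnumbered control library alone these counts were 1 and 3, then 2 and 2 (7SK particle), 4 and 3, then 6 and 3 (transcription factors), 2 and 3, then 2 and 4 (subunits), 3 and 0, then 2 and 0 (paraspeckle), and 2 and 3, then 2 and 2 (lncRNAs). Of the other short RNAs 3 and 2 were higher and 0 lower without both unnumbered libraries. In labelled double-KO at most 4 of any list were called in a direction in either setting, where 29.9% and 21% of all genes were called.

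**Figure D4:**
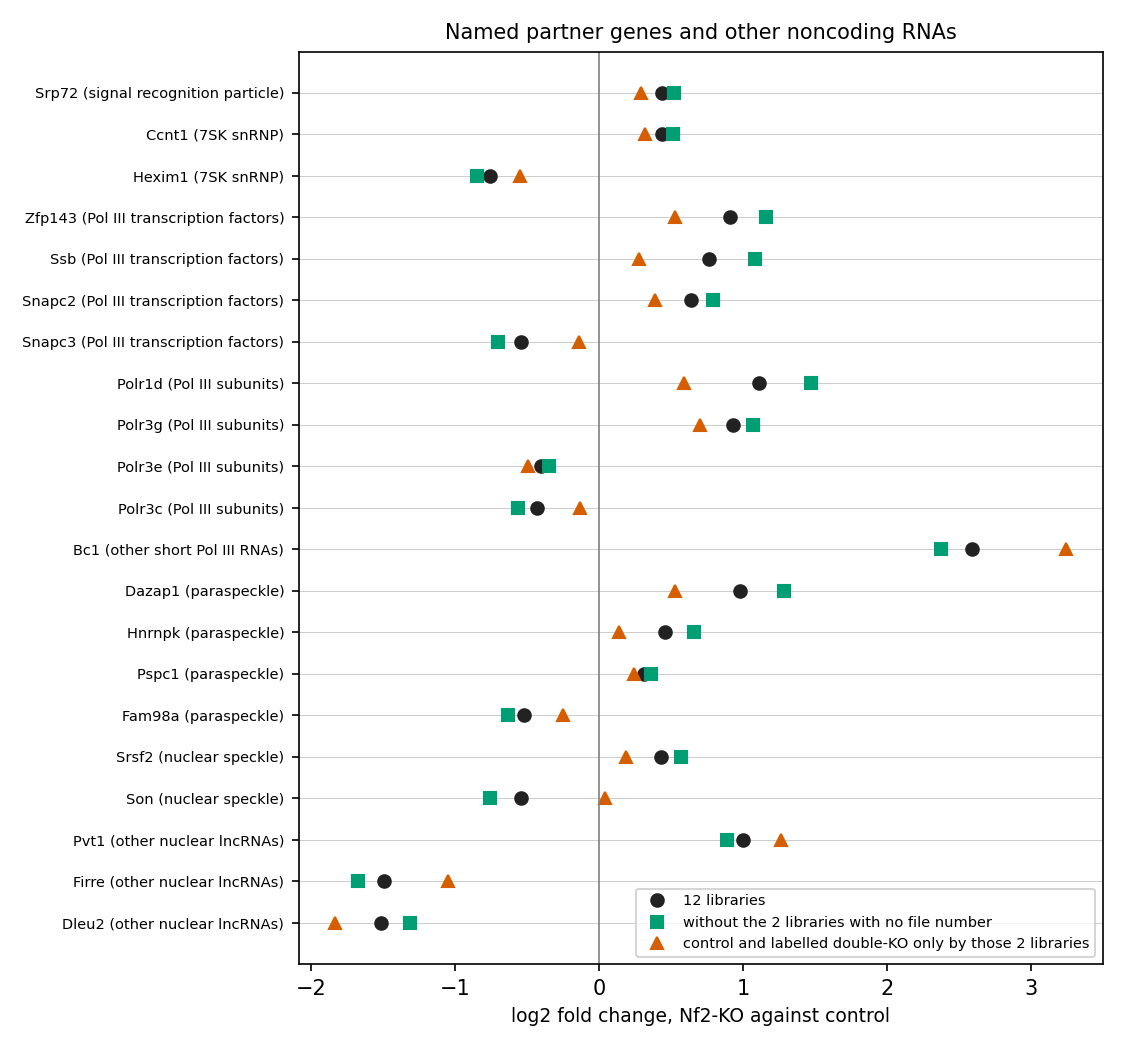
Log2 fold change in *Nf2*-KO against control of the named genes of the partner lists, in 3 sets of libraries. *Hexim1* (-0.76 with 12 libraries), *Polr3g* (0.93) and *Bc1* (2.59) keep their sign in all 3 sets, and *Son* turns from -0.54 to 0.04.

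By Pearson correlation of log2 CPM over the 12 libraries, among 9539 genes with a mean of at least 10 CPM, *Rn7s1* and *Rn7s2* were most like each other (r = 0.992) and next most like *Mad2l2* (0.924 and 0.944). *Rn7sk* was most like *Erf* (0.989), *Tnfrsf12a* (0.985) and *Plekhh3* (0.984). *Malat1* was most like *Tnrc6a* (0.989), *Vps13d* (0.988) and *Rnf169* (0.986), and *Neat1* like *Appl2* (0.985), *Nrip1* (0.972) and *Eps15l1* (0.970). The points share groups and depth, and by Spearman correlation 6 of the 15 genes were again among the 3 most alike. By Pearson correlation of the deviations from group means 2 of the 15 were, *Rn7s1* and *Rn7s2* with each other. Reads of their identical transcripts cannot be told apart, so the likeness of *Rn7s1* and *Rn7s2* is no result about separate genes.

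Epithelial markers, 5 of 6 measured, summed to between 3610 and 7080 CPM, with *Krt8* the most abundant. *Epcam*, an adhesion protein of epithelial cells, was lower in both groups in which *Malat1* was low, at -1.55 (edgeR adjusted p = 5.6e-05) in labelled *Rasa1*-KO and -2.63 (adjusted p = 1.0e-06) in *Nf2*-KO, and at -1.50 and -2.59 against the unnumbered control library alone. It was also lower in labelled double-KO, at -0.84 (adjusted p = 0.017), where *Krt19* was higher by 0.72 (adjusted p = 0.018). In labelled *Rasa1*-KO *Krt18* was higher by 0.83 (adjusted p = 0.0061), *Krt19* by 0.70 (adjusted p = 0.004) and *Krt8* by 0.64 (adjusted p = 0.033), the last at 0.17 (adjusted p = 0.18) against the unnumbered control library alone. Gastric markers, 6 of 10 measured, summed to between 5.58 and 30.6 CPM, and *Muc6*, *Gkn1*, *Gkn2* and *Pgc* were not analysed here. *Anxa10* was the most abundant of them over all libraries, and *Muc5ac*, a mucin of the gastric surface, was so in the control mean (6.60 CPM). *Muc5ac* was at -3.97 (edgeR adjusted p = 3.6e-05) in labelled *Rasa1*-KO, -4.47 (adjusted p = 1.3e-05) in *Nf2*-KO and -1.93 (adjusted p = 0.014) in labelled double-KO, the last at -0.88 (adjusted p = 0.24) against the unnumbered control library with labelled double-KO library 1. Other genes of the list went the other way: *Tff1* was higher by 2.25 (adjusted p = 0.017) in labelled *Rasa1*-KO, and *Anxa10* by 1.54 (adjusted p = 0.006) there and 2.54 (adjusted p = 0.0025) in labelled double-KO. *Atp4a* was at -1.04 (adjusted p = 0.003) in *Nf2*-KO.

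Immune markers, 2 of 5 measured, summed to between 5.60 and 21.6 CPM, nearly all of it *Cd68*, a protein of macrophage lysosomes, while *Ptprc*, found on all leukocytes, had group means of at most 0.449 CPM. *Cd68* was higher in both groups in which *Malat1* was low, by 1.58 (edgeR adjusted p = 7.2e-04) in labelled *Rasa1*-KO and 1.02 (adjusted p = 0.0091) in *Nf2*-KO, and by 1.96 and 1.39 against the unnumbered control library alone. Endothelial markers, *Kdr* and *Pecam1* being measured of 3, summed to at most 1.76 CPM. *Kdr* was higher by 1.35 (adjusted p = 0.022) and 1.28 (adjusted p = 0.027) and *Pecam1* was at -1.46 (adjusted p = 0.0081) and -1.62 (adjusted p = 0.0042). Of the fibroblast markers 4 of 5 were measured. Every gene quantified had at least 1 count in each library, so no measured marker could be at 0. *Col1a1*, *Col1a2* and *Pdgfra* were higher in both groups in which *Malat1* was low, *Col1a1* with group means of 12.4 CPM in control, 67.1 in labelled *Rasa1*-KO, 8.18 in labelled double-KO and 356 in *Nf2*-KO. *Dcn* was lower in both, at -1.13 (edgeR adjusted p = 0.0041) and -0.72 (adjusted p = 0.036), but at -0.19 (adjusted p = 0.15) and 0.22 (adjusted p = 0.092) against the unnumbered control library alone, with means of 66.1, 26.6, 13.5 and 36.9 CPM in the same order, and was the most abundant of the list in control and in labelled double-KO. The 4 markers summed to 32.8, 96.5 and 119 CPM in control, 153, 180 and 138 in labelled *Rasa1*-KO, 665, 607 and 560 in *Nf2*-KO, and 17.2, 24.7 and 25.8 in labelled double-KO. The unnumbered control library was low in both *Malat1* and the fibroblast markers. The part of the markers of these lists in the differences of the members was not tested.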

How the data were processed

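RNA of 12 libraries was prepared with a stranded total RNA kit after removal of rRNA and sequenced in paired reads of 100 bases. Reads were trimmed (Trimmomatic 0.38), aligned to mm10 (HISAT 2.1.0) and assigned to RefSeq genes (StringTie 2.1.3b) by the authors. They deposited raw read counts per gene, and FPKM, in which the authors divided counts by length and mapped reads. Their TPM columns were not used here. Groups are those of the sample labels.

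Counts were fitted in R 4.3.3 with edgeR 4.0.16 (filterByExpr, TMM, 1 quasi-likelihood fit over 12 libraries), with Benjamini-Hochberg adjustment over 18053 genes. A prior count of 2 entered log2 CPM. CPM given per library are scaled to the assigned counts without TMM factors. Counting error is small at this depth, and the spread between libraries set the precision. All pairs of libraries of a group differed by more than sampling noise in a chi-square test of their counts. FPKM were tested with limma 3.58.1 on log2(FPKM + 1) and log2(FPKM + 0.1) as an alternative. Ratios of members were tested by an exact permutation test over libraries, added after the ratios were seen. The other alternatives were RLE factors, DESeq2 1.42.0, no filter, library sizes without TMM or without the members, only the groups compared, exchanged labels, replicate blocks, the call rule of the study and libraries left out. Replicate numbers in the titles did not pair the libraries (r between -0.379 and 0.399). Numbered by table name, the 3 pairs of control and labelled double-KO had r of 0.626, 0.313 and 0.444. Crossed pairs of numbered libraries came close, at 0.258 for control library 1 with labelled double-KO library 3 and 0.399 for control library 2 with labelled double-KO library 2. The block thus mainly sets the unnumbered libraries of these groups apart from the numbered ones.

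The members and gene lists were chosen with earlier results of these data known. Named are the members, both targeted genes, up to 4 called genes of a list per comparison, and the 3 genes most like each member. Positions are from RefSeq on GRCm38.p6, and sequences and overlapping genes from GENCODE M21. A gene of a list, left out of its counts, and a sequence are not reported here. The code was tested on simulated data.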

Additional observations from a re-analysis of the deposited data

Results flagged for a closer look

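For *Malat1*, *Neat1* and *Rn7sk*, the change in the libraries labelled double-KO differed from the sum of the changes in labelled *Rasa1*-KO and *Nf2*-KO in edgeR's test of that difference. The departure was 1.83 for *Malat1* (adjusted p = 0.0023), 3.09 for *Neat1* (adjusted p = 0.017) and -0.92 for *Rn7sk* (adjusted p = 0.047) on the log2 scale, where 52.4% of all tested genes departed. All 3 depend on which libraries carry which label. With both labels exchanged, as the levels of *Nf2* and *Rasa1* have them, the departures were -0.25, -0.18 and -0.12. None was past the threshold there, where 6.41% of all tested genes departed. *Rn7sk* lost its call in 10 of the 12 fits that left out 1 library. They were larger without both unnumbered libraries, at 2.29 for *Malat1*, 4.02 for *Neat1* and -1.37 for *Rn7sk* (adjusted p = 1.2e-07, 1.7e-08 and 2.4e-04). With control and labelled double-KO represented by their unnumbered libraries alone, *Neat1* turned to -1.17 (adjusted p = 0.0062), *Malat1* was at 0.58 (adjusted p = 0.027) and *Rn7sk* was at -0.18 (adjusted p = 0.45).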

How the results depend on the processing

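Of 735 values of single members under the alternatives, 566 kept their direction and side of the threshold, 54 lost the threshold, 70 gained it and 45 changed sign. The cause was not tested where no cause is named. Values are log2 fold changes, counts are of the 5 members called, and a percentage in brackets is the share of all tested genes called in the same fit and comparison. *Rn7s1* and *Rn7s2* enter these counts as separate members, though their reads cannot be told apart.

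With exchanged labels, *Malat1* and *Neat1* were at 0.04 and 0.25 in labelled *Rasa1*-KO against control (0 called, 6.46%), at -1.0 and -1.38 in labelled double-KO against control (1 called, 41.9%), and at -0.25 and -0.18 in the departure from additivity (0 called, 6.41%), since this alternative swaps the groups. For the other pairs it only swaps names or signs.

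With control and labelled double-KO represented by their unnumbered libraries alone, *Neat1* was at 0.93 in labelled *Rasa1*-KO and 0.86 in *Nf2*-KO against control, and *Malat1* at 0.01 in the latter (2 called, 50.9%). Labelled double-KO against labelled *Rasa1*-KO and against *Nf2*-KO gave -0.31 and -0.24 for *Neat1*, with 3 called in the second (48.4%). *Nf2*-KO against labelled *Rasa1*-KO called 2 (24.4%), and the departure of *Neat1* was -1.17.

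Without both unnumbered libraries, 5, 3 and 1 were called against control in the order labelled *Rasa1*-KO, *Nf2*-KO and labelled double-KO (65.9%, 67% and 29.9%), then 3 in labelled double-KO against labelled *Rasa1*-KO (50.3%), 3 against *Nf2*-KO (50.6%), and 2 in *Nf2*-KO against labelled *Rasa1*-KO (19.2%). Signs turned for *Rn7s1* and *Rn7s2* in *Nf2*-KO against control (0.14 and 0.10), *Malat1* in labelled double-KO (-0.05), and the departures of *Rn7s1* and *Rn7s2* (-0.34 and -0.29).

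The replicate block by table name, where the pairing was seen only between control and labelled double-KO, called 5, 3 and 2 against control (52%, 53.2% and 13.9%), then 3, 4 and 2 in the other pairs (41.9%, 42.3% and 8.66%). *Rn7s1* and *Rn7s2* turned to 0.02 and 0.03 in *Nf2*-KO and to departures of -0.17 and -0.18. The block by the numbers in the titles, which do not pair the libraries, called 0 in labelled double-KO against labelled *Rasa1*-KO (20.7%) and 0 against *Nf2*-KO (31.2%). In that block *Rn7s1* and *Rn7s2* were both at 0.08 in *Nf2*-KO, and *Malat1* and *Neat1* at -0.08 and -0.05 in labelled double-KO against control.

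The fold rule of the study called 0 in labelled *Rasa1*-KO (9.27%) and 0 in *Nf2*-KO (11.4%) against control. With only the groups compared, 0 and 0 were called there (25.6% and 28.9%), 3 in labelled double-KO against labelled *Rasa1*-KO (47.2%), 4 against *Nf2*-KO (46.3%), and 2 in *Nf2*-KO against labelled *Rasa1*-KO (25.8%). DESeq2 called 2 and 2 against control (43% and 43.8%), and 2 and 4 in labelled double-KO against labelled *Rasa1*-KO and *Nf2*-KO (33.1% and 34.6%). Without a filter 0 were called in *Nf2*-KO against control (39.5%) and 0 in labelled double-KO against *Nf2*-KO (29.3%). limma on log2(FPKM + 1) and on log2(FPKM + 0.1) also called 0 and 0 there (42.8% and 32.8%, then 42.6% and 33%), called 1 in the departure (51.8% and 52%), and put *Malat1* at -0.02 in labelled double-KO against control. Library sizes without the members and without TMM put it at -0.06 and -0.09 and called 3 and 2 in labelled double-KO against *Nf2*-KO (33.7% and 34%), and moved the median of all genes to as low as -0.23.

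The summed share over counts without the members was 15.5% in control, 16.4% in labelled *Rasa1*-KO, 18.9% in labelled double-KO and 12.6% in *Nf2*-KO, larger by construction, and 14.7% in labelled *Rasa1*-KO over TMM-scaled counts.

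With each library left out, the counts called ranged from 0 to 5 (labelled *Rasa1*-KO), 0 to 3 (*Nf2*-KO) and 0 to 2 (labelled double-KO) against control, where 30.7% to 60.5%, 32.1% to 61.6% and 2.68% to 30.1% of all genes were called, and from 0 to 2, 0 to 4 and 0 to 1 in the other pairs (19.6% to 46.4%, 22.6% to 47.5% and 1.15% to 12.2%). The highest count in each was reached without the unnumbered control library. *Rn7s1* ranged from -0.30 to 0.14 and *Rn7s2* from -0.26 to 0.10 in *Nf2*-KO against control, and their departures from -0.17 to 0.29 and from -0.11 to 0.27. In labelled double-KO against control *Rn7sk* ranged from -0.01 to 0.51, *Malat1* from -0.23 to 0.23 and *Neat1* from -0.23 to 0.71. RLE factors changed no count of members called by over 1.5 times.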
